A study of Mus musculus with 8 samples.

Results

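The DNA replication machinery was followed here as 50 genes across 8 RNA sequencing libraries from mouse common lymphoid progenitors (CLPs), the marrow cells that give rise to lymphocytes. The genes were chosen by name, as a list of symbols for the proteins that license origins, unwind, prime and copy DNA, load the sliding clamp and supply nucleotides. All 50 were found among the 39179 gene IDs of each library. In the libraries labelled ex vivo CLP (4), RNA came from C57BL/6 bone marrow CLPs sorted without culture. In the libraries labelled cCLP (4), it came from C57BL/6 bone marrow CLPs that had been cultured for 2 months on OP9 stromal cells, a mouse line, with Flt3L and low IL-7 before sorting. Cells of both groups were Lin-, Flk2+, IL7R+, CD27+ and Ly6d-. The labels name no animal, culture or batch, so p-values measure only the spread between these libraries, which may be technical.

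Replication starts when the origin recognition complex (ORC), CDC6 and CDT1 load the ring of MCM proteins on DNA, a step that geminin blocks by binding CDT1. The kinase CDC7, with MCM10, then helps CDC45 and the GINS complex to turn that ring into a running helicase. DNA polymerase alpha with primase lays down primers, polymerases epsilon and delta extend them, RFC loads the PCNA clamp, and RPA coats single strands. Ribonucleotide reductase and other enzymes make the deoxynucleotides. Many of these genes are transcribed in waves at entry into S phase under E2F factors, so their RNA is widely read as a sign of dividing cells, such as the progenitors of bone marrow.

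The deposited values are whole numbers per gene on a scale that is not stated. They varied less between like libraries than read counts can, so the depth is unknown and levels of different genes are not compared. They summed to between 378594 and 704305 per library. Values below are scaled values, which are deposited values divided by a library factor. Fold changes are differences of mean log2(scaled value + 1), cultured minus ex vivo, with their standard errors, a scale that understates the change of low genes. RNA of the sort markers Flt3 and Cd27 was present in all 8 libraries, and the summed value of Flt3, Il7r, Cd27 and Ly6d ranged from 334 to 576. Il7r, whose product was sorted for, was at 73.7, 17.8 and 17.2 in ex vivo replicates 1, 3 and 4 and at 226, 195 and 215 in cCLP replicates 2, 3 and 4, and rose by limma over these 6 libraries (2.85 ± 0.51, adjusted p = 0.00364). Ly6d, whose product was sorted against, was at 33.8, 35.6 and 29.4 in ex vivo replicates 1, 3 and 4 and at 1.06, 0.956 and 0.838 in cCLP replicates 2, 3 and 4.

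A pair of libraries, labelled ex vivo CLP 2 and cCLP 1, lay with the other libraries of the opposite label. Over 6467 genes outside the replication and cell cycle lists, the library labelled ex vivo CLP 2 had Spearman's rho of 0.959 to 0.986 with cCLP replicates 2, 3 and 4 and 0.736 to 0.800 with ex vivo replicates 1, 3 and 4. The library labelled cCLP 1 had 0.947 to 0.979 with ex vivo replicates 1, 3 and 4 and 0.780 to 0.791 with cCLP replicates 2, 3 and 4. These values are across genes, which are not independent replicates, and carry no test. The replication genes lay the same way. For 44 of 48 of them the library labelled ex vivo CLP 2 was nearer to the mean of cCLP replicates 2, 3 and 4. Among the 6467 genes outside the lists this held for 4695. For 44 of 48 the library labelled cCLP 1 was nearer to the mean of ex vivo replicates 1, 3 and 4, as it was for 4871 of the 6467. Of the sort markers, Il7r was at 217 and Ly6d at 0 in the library labelled ex vivo CLP 2. In the library labelled cCLP 1 they were at 26.6 and 20.9. Ly6d RNA was thus present in ex vivo replicates 1, 3 and 4, against the stated sort, and absent from the library labelled ex vivo CLP 2. Which libraries hold the cells that their labels name was not tested. No library was moved to another group. Counts and medians of the whole list, and subgroup medians, are given over all 8 libraries as labelled and the 6 without these 2. Most other results are given over the 6 libraries only. Since the 6 were picked by their profiles, p-values over them hold only given that choice.

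**Figure D1:**
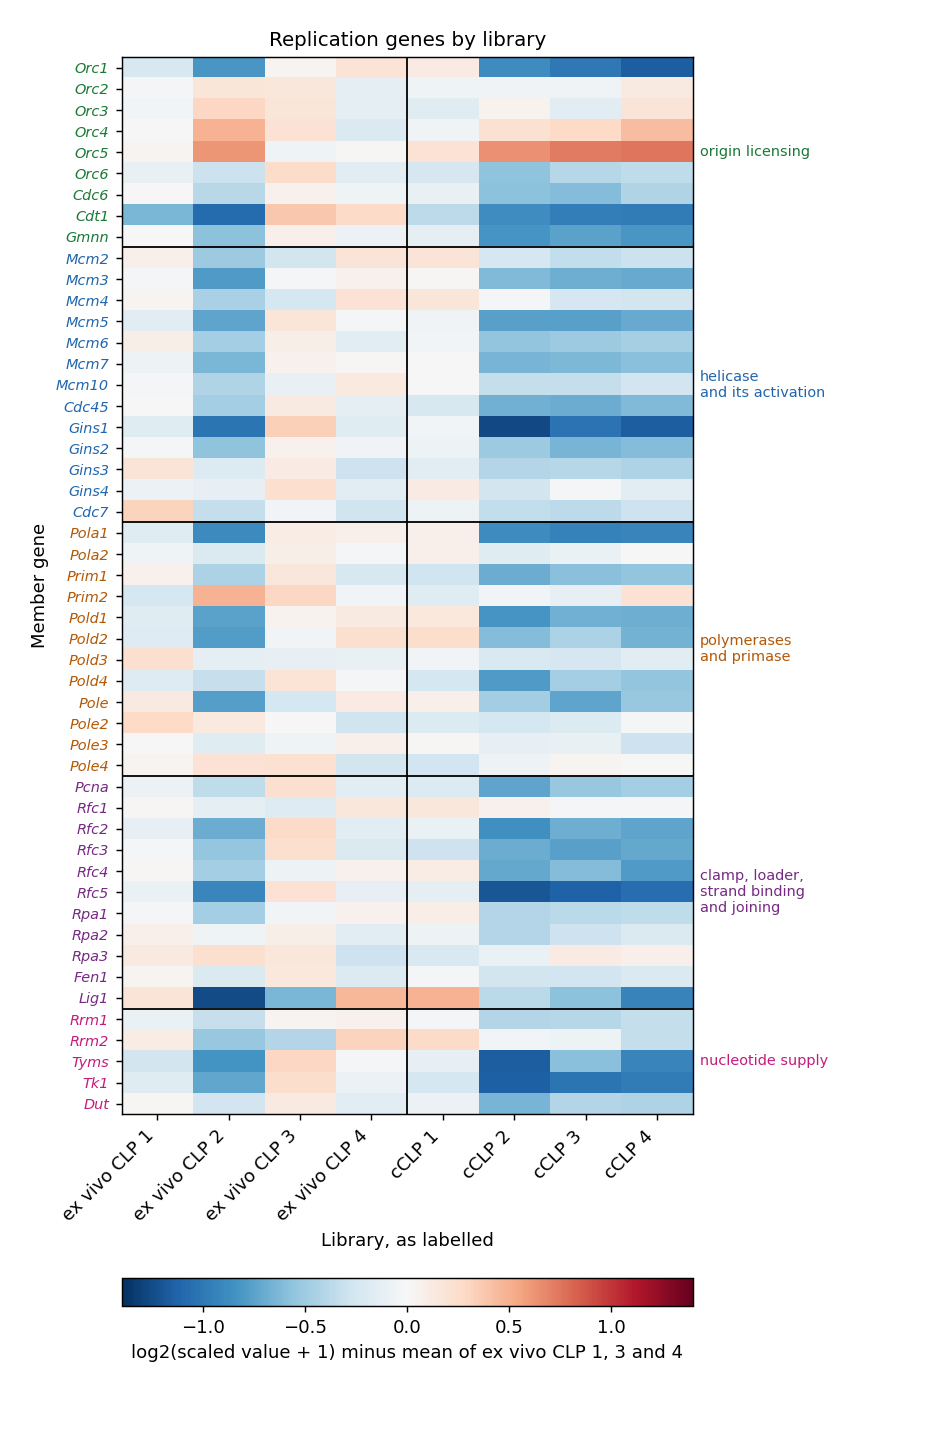
Colour shows log2(scaled value + 1) of each of the 50 replication genes (rows, coloured by subgroup) in each library (columns, as labelled), minus the mean of ex vivo replicates 1, 3 and 4. Most rows are blue (lower) in cCLP replicates 2, 3 and 4 and in the library labelled ex vivo CLP 2, while the library labelled cCLP 1 is near white; Orc5 is red (higher) in the blue columns.

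Over all 8 libraries as labelled, no replication gene passed the test. With limma, 0 of 49 tested were called in either direction at an adjusted p below 0.05, and neither was any of all 6580 genes tested (0.0%). At an unadjusted p below 0.05 there were 9 of the 49, against 510 of all genes (7.75%). The median log2 fold change was -0.23, beside -0.01 for all genes tested, and 43 of the 49 values were below 0, as were 51.7% of all. No replication gene kept its labelled groups apart, where 1.75% of all genes did with cCLPs higher and 1.7% with cCLPs lower. Leaving out a single library moved this median to -0.37 for the library labelled ex vivo CLP 2 and to -0.37 for the library labelled cCLP 1. The smallest p-values belonged to Pold4, Cdc45 and Prim1, described below.

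Over the 6 libraries, replication genes were mostly lower in cCLP replicates 2, 3 and 4. Of 48 tested, 28 fell (58.3%) and 1 rose (2.08%), where 22.4% of all 6622 genes tested fell and 20.7% rose. The median log2 fold change was -0.50, beside -0.0013 for all genes, and 41 of the 48 values were below 0 (50.1% of all genes). At an unadjusted p below 0.05 there were 30 of the 48 (50.7% of all genes). All libraries of cCLP replicates 2, 3 and 4 lay below all of ex vivo replicates 1, 3 and 4 for 33 of the 48 (28.3% of all genes), and above them for 2, Orc4 and Orc5 (27.6%). Falls among the called genes ran from -0.32 (Mcm10) to -1.15 (Gins1). Orc1 and Gins3 did not pass the filter on low values. Of the 48 that did, Mcm10 was at 10 or more throughout the ex vivo group only and Orc4 throughout the cCLP group only. Leaving out both, 27 of 46 fell. In bulk RNA, fewer cells in S phase and less RNA per cell cannot be told apart.

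**Figure D2:**
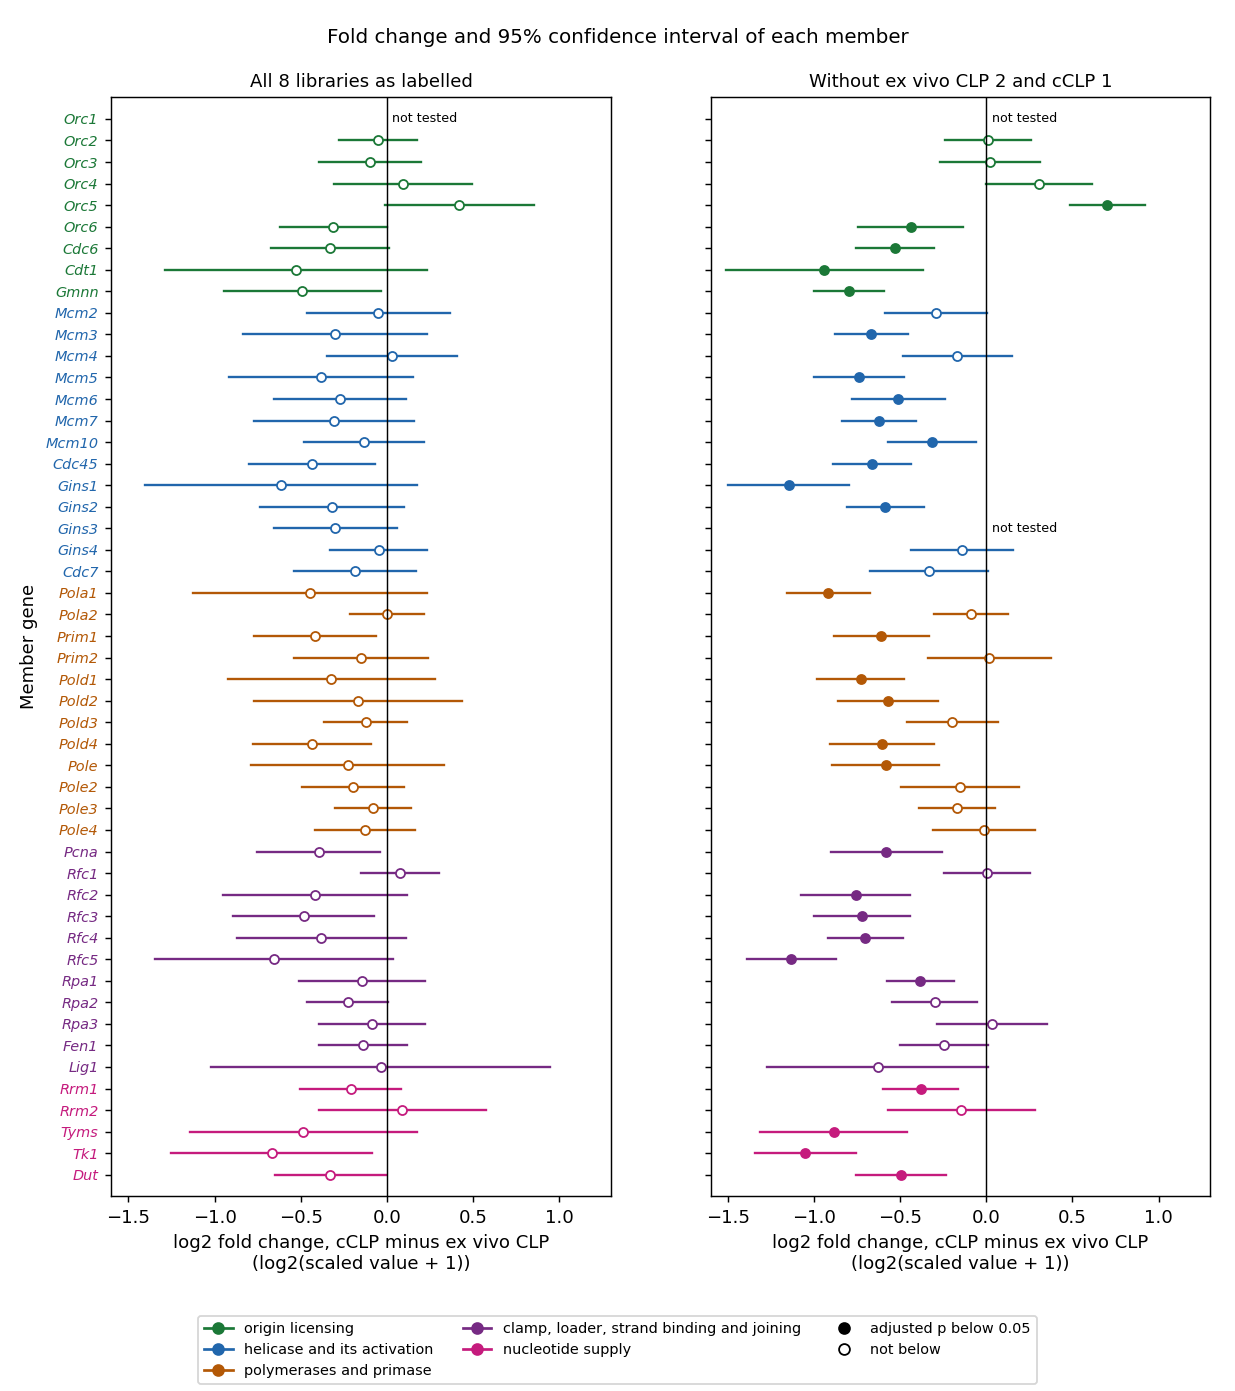
Log2 fold change (points) and its 95% confidence interval (lines) of each gene over all 8 libraries (left) and the 6 libraries (right), coloured by subgroup, filled where adjusted p is below 0.05. On the left no point is filled; on the right 29 are, with Orc5 the filled point above 0.

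The promoters of these genes were searched for 8-letter E2F motifs (TTTCCCGC, TTTGGCGC, TTTCGCGC and TTTGCCGC, both strands, overlaps allowed) in the RefSeq promoter sequences, GRCm38.p6, of which 42 of the 50 genes had an entry. In the 250 bases before the start, 10 of 42 promoters (23.8%) held a match, against 214 of 5182 (4.13%) for all genes tested with an entry and 517 of 27025 (1.91%) for all genes in the table. By subgroup these were 3 of 8 for origin licensing, 4 of 9 for the helicase, 2 of 10 for the polymerases, 1 of 10 for the clamp group and 0 of 5 for nucleotide supply. A match was present for 6 of 23 genes that fell and 2 of 16 that were tested and not called. With the 50 bases after the start included, the counts were 15 of 42 and 258 of 5182 (4.98%). The letters CCAAT, a common promoter element, were found before the start of 22 of 42 (52.4%), against 37.4% of the genes tested. They were present for 15 of 23 genes that fell and 5 of 16 not called. By subgroup these were 2 of 8 for origin licensing, 8 of 9 for the helicase, 4 of 10 for the polymerases, 6 of 10 for the clamp group and 2 of 5 for nucleotide supply. TTTGAA, the letters of a cell cycle element, stood before 4 of 42 (9.52%), against 10.9%. A match is a description of letters, not of binding, and no match says only that these letters are not in this window.

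Among genes that fell, a match before the start was held by Cdc6, Mcm5, Mcm6, Mcm7, Pola1 and Rfc3. The start is that of the RefSeq table, which can differ from the GENCODE gene bounds printed with each gene. The matched stretches of Cdc6, Mcm7 and Rfc3 overlap those bounds and are not printed. The other 3 follow, to show the matched letters and the bases around them. Pola1 was taken by the rule for printed promoters, and Mcm5 and Mcm6 were added after their values were seen. Each stretch reads 5′ to 3′ on the gene's strand, with up to 30 bases on each side of the matches and none past the start. Capitals mark the E2F letters.
Mcm5, chr8:75109326-75109397, plus strand: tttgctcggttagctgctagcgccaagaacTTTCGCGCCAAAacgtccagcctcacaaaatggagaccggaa
Mcm6, chr1:128359715-128359845, minus strand: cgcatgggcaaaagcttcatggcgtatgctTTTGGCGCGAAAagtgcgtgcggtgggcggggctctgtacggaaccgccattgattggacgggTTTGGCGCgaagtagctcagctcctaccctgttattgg
Pola1, chrX:93632256-93632323, minus strand: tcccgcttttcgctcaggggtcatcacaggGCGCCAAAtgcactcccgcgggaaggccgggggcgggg
In Mcm5 and Mcm6, a match on each strand overlapped in a near-palindrome, with first bases 153 and 149 bases before the RefSeq start of Mcm5 and 110 and 106 before that of Mcm6. Mcm6 held a further match 47 bases before its start. The match lay 138 bases before the RefSeq start in Pola1.

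Among the origin licensing genes, those for the loading factors and their inhibitor fell, while ORC subunits went both ways. Of 8 tested, 4 fell and 1 rose, with a median of -0.22. Cdt1 (ENSMUSG00000006585, chromosome 8, 122568015 to 122573554), which encodes the MCM loader, was at 35.1, 72.4 and 66.7 in ex vivo replicates 1, 3 and 4 and at 29.8, 27.7 and 27.7 in cCLP replicates 2, 3 and 4. It was at 25.8 in the library labelled ex vivo CLP 2 and at 42.7 in the library labelled cCLP 1. Ex vivo CLP 1 stood near the cCLP values and the groups did not overlap. Cdt1 fell from 58.1 ± 20.1 to 28.4 ± 1.2 (log2 fold change -0.94 ± 0.25, adjusted p = 0.017), by limma over the 6 libraries (SD and SE, n = 3). This call was lost when any 1 of 5 libraries was left out, the exception being ex vivo CLP 1 (adjusted p of 0.0514 to 0.0607).

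Gmnn (ENSMUSG00000006715, chromosome 13, 24751845 to 24761923) encodes geminin, the inhibitor of CDT1. It was at 55.6, 58.4 and 52.4 in ex vivo replicates 1, 3 and 4 and at 30.8, 32.5 and 31.0 in cCLP replicates 2, 3 and 4, against 37.0 in the library labelled ex vivo CLP 2 and 50.3 in the library labelled cCLP 1. The ex vivo values were close together and all above the cCLP values. Gmnn fell from 55.5 ± 3.02 to 31.4 ± 0.911 (log2 fold change -0.80 ± 0.09, adjusted p = 0.000252). Cdc6, which encodes the ATPase that recruits CDT1, also fell from 19.4 ± 0.835 to 13.1 ± 0.974 (log2 fold change -0.53 ± 0.10, adjusted p = 0.0035).

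Orc5 (ENSMUSG00000029012, chromosome 5, 22486485 to 22550429), which encodes an ATPase-fold subunit of ORC, was the replication gene that rose. It was at 10.9, 10.2 and 10.8 in ex vivo replicates 1, 3 and 4 and at 17.0, 18.2 and 18.4 in cCLP replicates 2, 3 and 4. The library labelled ex vivo CLP 2 had 16.8 and the library labelled cCLP 1 had 12.3. The groups were far apart next to their spread, and the rise was from 10.6 ± 0.386 to 17.9 ± 0.760 (log2 fold change 0.70 ± 0.09, adjusted p = 0.000725). Orc6, which encodes the small ORC subunit, fell from 57.6 ± 9.60 to 41.9 ± 3.23 (log2 fold change -0.44 ± 0.13, adjusted p = 0.0284). That call ended without cCLP 2, cCLP 3 or cCLP 4. The gene bounds of Orc6 overlap Vps35, and the strand setting of the counting is not stated. Values for Orc2 (0.01, 95% interval -0.24 to 0.26) and Orc3 (0.02, -0.27 to 0.31) lay near 0, with signs that turned under upper quartile scaling. Orc4 was at 0.31 ± 0.13 (adjusted p = 0.1) and passed the threshold without ex vivo CLP 3. Orc1, whose RNA is known to follow the cell cycle, was too low to test, at 7.25, 8.89 and 10.05 in ex vivo replicates 1, 3 and 4 and 4.25, 3.82 and 3.35 in cCLP replicates 2, 3 and 4. Its libraries did not overlap either.

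All 12 tested genes of the helicase had negative fold changes over the 6 libraries, and 8 of them fell (median -0.55). Within the MCM ring, Mcm3, Mcm5, Mcm6 and Mcm7 fell, and Mcm2 and Mcm4 did not pass the test. Mcm5 (ENSMUSG00000005410, chromosome 8, 75109569 to 75128439), which encodes a ring subunit at the gate that opens onto DNA, was at 207, 259 and 228 in ex vivo replicates 1, 3 and 4. It was at 136, 136 and 141 in cCLP replicates 2, 3 and 4, 138 in the library labelled ex vivo CLP 2 and 223 in the library labelled cCLP 1. The cCLP values were within 6 units of each other, and no ex vivo value came near them. Mcm5 fell from 231 ± 26.3 to 138 ± 2.87 (log2 fold change -0.74 ± 0.11, adjusted p = 0.00137). The falls of the other ring genes were Mcm3 (-0.67 ± 0.09, adjusted p = 0.000834), Mcm7 (-0.62 ± 0.09, adjusted p = 0.00125) and Mcm6 (-0.51 ± 0.12, adjusted p = 0.00932). For Mcm2 the value was -0.29 (95% interval -0.59 to 0.00, adjusted p = 0.103) and for Mcm4 -0.17 (-0.48 to 0.15, adjusted p = 0.357). In both, ex vivo CLP 3 lay below the highest cCLP library, and without that library Mcm2 passed the threshold. Whether ring subunits differ from each other in their change was not tested.

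Gins1 (ENSMUSG00000027454, chromosome 2, 150905400 to 150931280), which encodes a GINS subunit, had the largest fall of the 48. It was at 37.5, 53.3 and 37.3 in ex vivo replicates 1, 3 and 4 and at 17.0, 20.1 and 18.4 in cCLP replicates 2, 3 and 4. The library labelled ex vivo CLP 2 had 20.2 and that labelled cCLP 1 had 40.8. Every ex vivo value of the 3 was above every cCLP value, and the change was from 42.7 ± 9.21 to 18.5 ± 1.53 (log2 fold change -1.15 ± 0.15, adjusted p = 0.000661). Gins2 fell less (-0.59 ± 0.10, adjusted p = 0.00201), and Gins4 did not pass the test (-0.14, 95% interval -0.43 to 0.16). Gins3 was not tested over the 6 libraries, with 13.3, 12.7 and 9.33 in ex vivo replicates 1, 3 and 4 and 8.50, 8.60 and 8.38 in cCLP replicates 2, 3 and 4. Cdc45 (ENSMUSG00000000028, chromosome 16, 18780447 to 18811987), the third part of the running helicase, was at 53.2, 58.4 and 48.8 in ex vivo replicates 1, 3 and 4, 33, 32.5 and 34.4 in cCLP replicates 2, 3 and 4, 38.2 in the library labelled ex vivo CLP 2 and 45.6 in the library labelled cCLP 1. It fell from 53.5 ± 4.82 to 33.3 ± 0.980 (log2 fold change -0.66 ± 0.10, adjusted p = 0.00115). As labelled, across 8 libraries, Cdc45 was at -0.44 ± 0.16 (adjusted p = 0.482), with the labelled groups overlapping. The factor gene Mcm10 fell by 0.32 on the log2 scale (adjusted p = 0.0485), close to the threshold. Its call ended under upper quartile and library sum scaling, and without any 1 of 5 libraries, the exception being ex vivo CLP 3. The kinase gene Cdc7 did not pass the test (-0.33, adjusted p = 0.109), but did without ex vivo CLP 4.

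**Figure D3:**
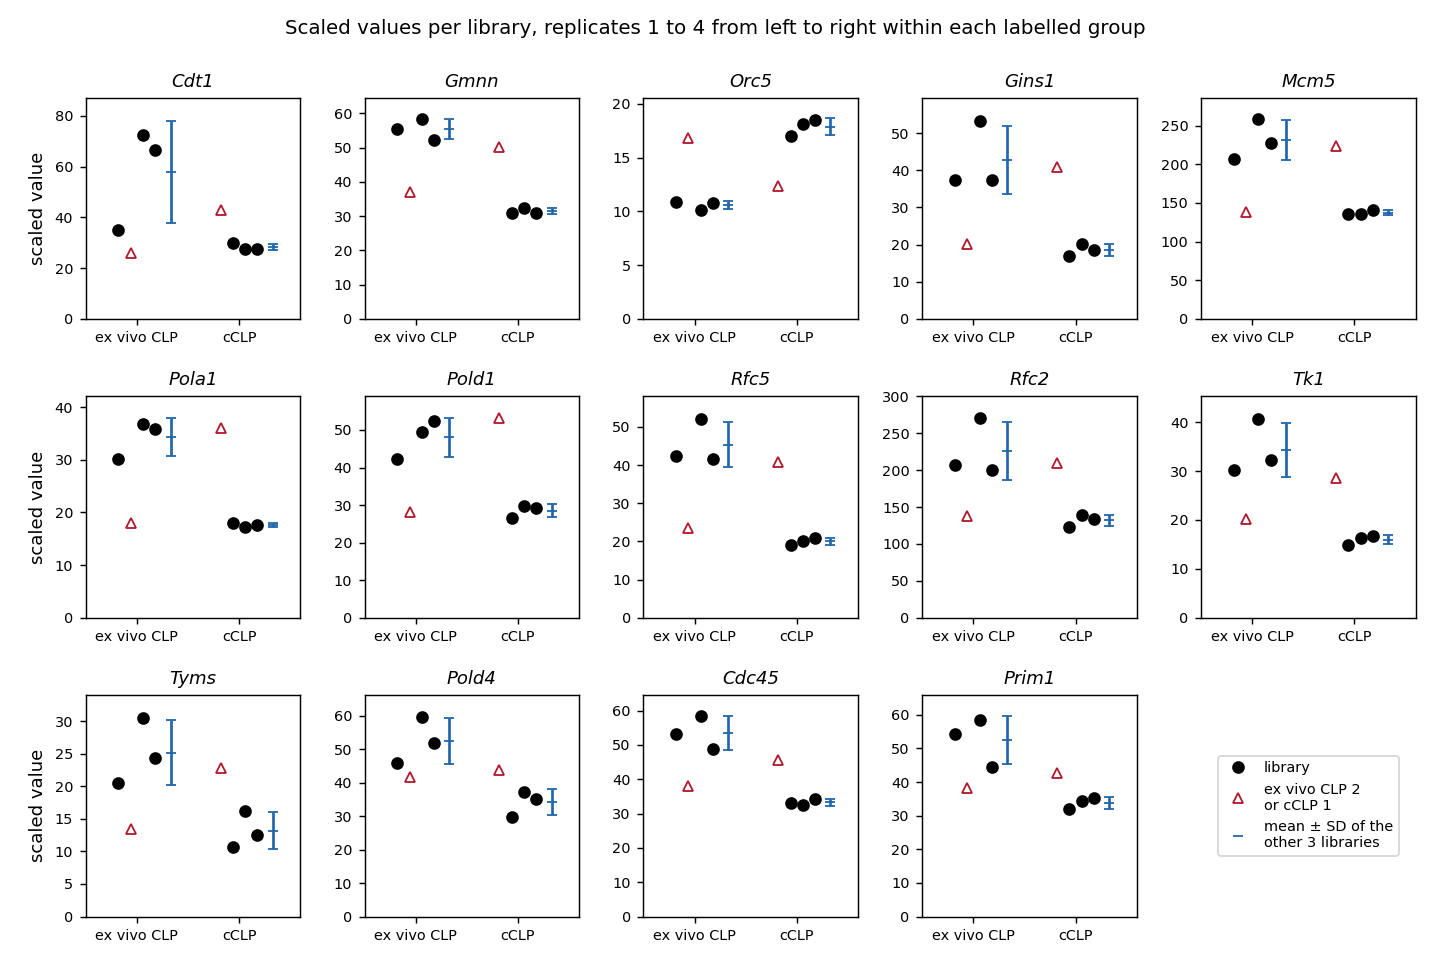
Scaled values (vertical axes, from 0) of 14 replication genes in each library, by labelled group, with the mean ± SD of ex vivo replicates 1, 3 and 4 and of cCLP replicates 2, 3 and 4 in blue. Red triangles are the library labelled ex vivo CLP 2 and that labelled cCLP 1; for Gins1 they stand at 20.2 and 40.8, each among the values of the other group's libraries or next to them.

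In each of the 3 replicative polymerases, the gene for the catalytic subunit fell and at least 1 accessory subunit did not pass the test. Of 12 tested genes 6 fell and 0 rose (median -0.38). Pola1 (ENSMUSG00000006678, chromosome X, 93304767 to 93632155), which encodes the catalytic subunit of polymerase alpha, was at 30.2, 36.8 and 35.9 in ex vivo replicates 1, 3 and 4 and at 18.1, 17.2 and 17.6 in cCLP replicates 2, 3 and 4. The library labelled ex vivo CLP 2 was at 18, level with the cCLP values, and the library labelled cCLP 1 was at 36.1. Pola1 fell from 34.3 ± 3.58 to 17.6 ± 0.435 (log2 fold change -0.92 ± 0.10, adjusted p = 0.000288). Prim1 (ENSMUSG00000025395, chromosome 10, 128015168 to 128030037), which encodes the catalytic primase subunit, was at 54.4, 58.4 and 44.5 in ex vivo replicates 1, 3 and 4, 31.9, 34.4 and 35.2 in cCLP replicates 2, 3 and 4, 38.2 in the library labelled ex vivo CLP 2 and 42.7 in the library labelled cCLP 1. It fell from 52.4 ± 7.17 to 33.8 ± 1.73 (log2 fold change -0.61 ± 0.12, adjusted p = 0.00458), and over the 8 libraries stood at -0.42 ± 0.15 (adjusted p = 0.482). The genes of their partner subunits were near 0 and not called, with Pola2 at -0.09 (95% interval -0.30 to 0.12) and Prim2 at 0.02 (-0.34 to 0.37). The sign for Prim2 turned under upper quartile scaling.

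For polymerase delta, Pold1 (ENSMUSG00000038644, chromosome 7, 44532746 to 44548849), the catalytic subunit gene, was at 42.3, 49.5 and 52.4 in ex vivo replicates 1, 3 and 4 and at 26.6, 29.6 and 29.3 in cCLP replicates 2, 3 and 4. It was at 28.1 in the library labelled ex vivo CLP 2 and at 53.2, its highest value, in the library labelled cCLP 1. Pold1 fell from 48.1 ± 5.20 to 28.5 ± 1.69 (log2 fold change -0.73 ± 0.11, adjusted p = 0.00125). The small subunit gene Pold4 (ENSMUSG00000024854, chromosome 19, 4231899 to 4233634) had 45.9, 59.7 and 51.7 in ex vivo replicates 1, 3 and 4, 29.8, 37.3 and 35.2 in cCLP replicates 2, 3 and 4, 41.5 in the library labelled ex vivo CLP 2 and 43.7 in the library labelled cCLP 1. Pold4 fell from 52.4 ± 6.91 to 34.1 ± 3.88 (log2 fold change -0.60 ± 0.13, adjusted p = 0.00716). It had the smallest p of all replication genes over the 8 libraries (-0.44 ± 0.15, adjusted p = 0.482), where the labelled groups overlapped between 41.5 and 43.7. Pold2 also fell (-0.57 ± 0.13, adjusted p = 0.00828), and Pold3 did not pass the test (-0.20, 95% interval -0.46 to 0.07). For polymerase epsilon, Pole fell (-0.58 ± 0.13, adjusted p = 0.01), a call that ended when values were scaled to the library sum. The accessory genes Pole2 (-0.15), Pole3 (-0.17) and Pole4 (-0.01) did not pass the test, and the sign for Pole4 turned under library sum scaling. POLE3 and POLE4 form a histone-fold pair that also works outside the polymerase.

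Genes of the clamp and of 4 of the 5 clamp loader subunits fell, while those that finish the lagging strand did not pass the test. In all, 6 of 11 fell and 0 rose (median -0.58). Rfc5 (ENSMUSG00000029363, chromosome 5, 117378103 to 117389047), which encodes a small loader subunit, was at 42.3, 52.1 and 41.6 in ex vivo replicates 1, 3 and 4 and at 19.1, 20.1 and 21.0 in cCLP replicates 2, 3 and 4. The library labelled ex vivo CLP 2 had 23.6 and the library labelled cCLP 1 had 40.8. Its fall was from 45.3 ± 5.84 to 20.1 ± 0.913 (log2 fold change -1.13 ± 0.11, adjusted p = 0.000139), with no overlap. Rfc2 (ENSMUSG00000023104, chromosome 5, 134581366 to 134601805) was at 207, 270.5 and 200.2 in ex vivo replicates 1, 3 and 4, 123, 139 and 134 in cCLP replicates 2, 3 and 4, 138 in the library labelled ex vivo CLP 2 and 209.9 in the library labelled cCLP 1. It fell from 226 ± 38.8 to 132 ± 7.85 (log2 fold change -0.76 ± 0.14, adjusted p = 0.0032). Rfc3 (-0.72 ± 0.12, adjusted p = 0.00213) and Rfc4 (-0.70 ± 0.09, adjusted p = 0.000683) fell by similar amounts. The gene bounds of Rfc2 overlap Lat2 and those of Rfc4 overlap Eif4a2, both expressed here, so part of their values may be uncertain. The large subunit gene Rfc1 was at 0.01 (95% interval -0.24 to 0.25), with a sign that turned under upper quartile scaling. That interval lies above those of Rfc2, Rfc3, Rfc4 and Rfc5, but the difference itself was not tested.

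Pcna, the gene for the clamp, was at 312, 385 and 298 in ex vivo replicates 1, 3 and 4 and at 197, 228 and 237 in cCLP replicates 2, 3 and 4, and fell from 331 ± 46.7 to 221 ± 21.3 (log2 fold change -0.58 ± 0.14, adjusted p = 0.0114). Of the RPA genes, Rpa1 fell (-0.38 ± 0.08, adjusted p = 0.00821). Rpa2 missed the threshold (-0.30 ± 0.11, adjusted p = 0.0537) and passed it without ex vivo CLP 4, and Rpa3 was at 0.03 (95% interval -0.29 to 0.35). Fen1, the flap nuclease gene, did not pass the test (-0.24, adjusted p = 0.111), although its groups did not overlap, and passed it without ex vivo CLP 4. The gene bounds of Fen1 overlap Tmem258, also expressed here, so part of the value of Fen1 may be uncertain. Lig1, which encodes the ligase that seals Okazaki fragments, spread most among the ex vivo libraries. It was at 41.1, 22.9 and 50.2 in ex vivo replicates 1, 3 and 4, 27.6, 23.9 and 18.4 in cCLP replicates 2, 3 and 4, 14.6 in the library labelled ex vivo CLP 2 and 51.3 in the library labelled cCLP 1. Ex vivo CLP 3 lay inside the cCLP range, the change was -0.63 ± 0.28 (adjusted p = 0.104), and Lig1 passed the threshold without that library.

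Nucleotide supply genes fell except for the small subunit of ribonucleotide reductase. Of 5 tested, 4 fell (median -0.50). Tk1 (ENSMUSG00000025574, chromosome 11, 117815526 to 117826092), which encodes the thymidine kinase of the salvage pathway, was at 30.2, 40.6 and 32.3 in ex vivo replicates 1, 3 and 4 and at 14.9, 16.2 and 16.8 in cCLP replicates 2, 3 and 4. Its values were 20.2 in the library labelled ex vivo CLP 2 and 28.5 in the library labelled cCLP 1. The lowest of the 3 ex vivo values was well above the highest cCLP value, and Tk1 fell from 34.4 ± 5.52 to 16 ± 0.974 (log2 fold change -1.05 ± 0.13, adjusted p = 0.000405). Tyms (ENSMUSG00000025747, chromosome 5, 30058202 to 30073617), which encodes thymidylate synthase of the de novo pathway, was at 20.5, 30.5 and 24.4 in ex vivo replicates 1, 3 and 4, 10.6, 16.2 and 12.6 in cCLP replicates 2, 3 and 4, 13.5 in the library labelled ex vivo CLP 2 and 22.8 in the library labelled cCLP 1. It fell from 25.1 ± 5.01 to 13.2 ± 2.85 (log2 fold change -0.89 ± 0.18, adjusted p = 0.00606). Dut, which encodes the dUTPase that makes the substrate of thymidylate synthase, fell from 90.9 ± 8.66 to 64.1 ± 5.82 (log2 fold change -0.50 ± 0.11, adjusted p = 0.00956). Of the reductase genes, Rrm1 fell (-0.38 ± 0.09, adjusted p = 0.0135; lost without cCLP 2 or cCLP 3). Rrm2, whose product is the limiting subunit in S phase, did not pass the test. It was at 42.3, 29.2 and 48.8 in ex vivo replicates 1, 3 and 4 and 38.3, 37.3 and 31.0 in cCLP replicates 2, 3 and 4, and at -0.15 (95% interval -0.57 to 0.28) the groups overlapped.

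Side by side, the 5 subgroups differed in median log2 fold change over the 6 libraries. It was -0.22 for origin licensing, -0.55 for the helicase, -0.38 for the polymerases, -0.58 for the clamp group and -0.50 for nucleotide supply. Over all 8 libraries as labelled, the medians were -0.21, -0.30, -0.18, -0.23 and -0.33 in the same order, so the subgroups ranked otherwise. Ranges of the subgroups overlapped, and differences between subgroups were not tested. Over the 6 libraries, smaller units ran from 0.02 for ORC and -0.16 for polymerase epsilon to -0.57 for the MCM ring, -0.59 for polymerase delta and -0.72 for RFC. Per library, the mean over the 48 genes, relative to the mean of ex vivo replicates 1, 3 and 4, was -0.03, 0.06 and -0.03 in those libraries. It was -0.47, -0.42 and -0.41 in cCLP replicates 2, 3 and 4, -0.39 in the library labelled ex vivo CLP 2 and -0.04 in the library labelled cCLP 1. Spread within a group was larger ex vivo. The median SD of a replication gene on the log2 scale was 0.181 over ex vivo replicates 1, 3 and 4 and 0.0838 over cCLP replicates 2, 3 and 4, beside 0.180 and 0.0998 for all genes tested.

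Of 40 other replication factors 32 were tested over the 6 libraries, of which 16 fell, 0 rose and 16 were not called (median -0.37). Among all genes tested, 22.4% fell and 20.7% rose. Fold changes were above 0 for 7 of the 32. All cCLP libraries of the 6 lay below all ex vivo ones for 17 of the 32 (28.3% of all genes) and above them for 3 (27.6%). The largest fall was that of Chaf1b, a histone chaperone gene (-1.005 ± 0.10, adjusted p = 0.000112). Of 20 regulators of the step from G1 to S phase 13 were tested, of which 5 fell and 1 rose. Cdkn1a, which encodes the cell cycle inhibitor p21, had the largest fall (-1.71 ± 0.46, adjusted p = 0.0188), from 12.1, 11.4 and 36.6 to 6.38, 5.73 and 2.52, a call lost without cCLP 4 (adjusted p = 0.0695). E2f3, an E2F gene, rose by limma (0.42 ± 0.14, adjusted p = 0.0424). That call was lost without any 1 of 5 libraries, the exception being ex vivo CLP 1 (adjusted p of 0.0969 to 0.134). Other listed E2F genes went the other way. E2f4 fell by limma (-0.24 ± 0.08, adjusted p = 0.0494), close to the threshold. E2f1, E2f2, E2f7 and E2f8 were too low to test and had lower means in cCLP replicates 2, 3 and 4. Of 20 mitosis genes 19 were tested, of which 13 fell and 0 rose (median -0.45), with Prc1, a spindle midzone gene, the largest (-1.03 ± 0.12, adjusted p = 0.000334). Over the 8 libraries 0 genes of these 3 lists were called. An unadjusted p below 0.05 was held by 5 of 32, 2 of 13 and 6 of 19, against 7.75% of all genes tested.

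**Figure D4:**
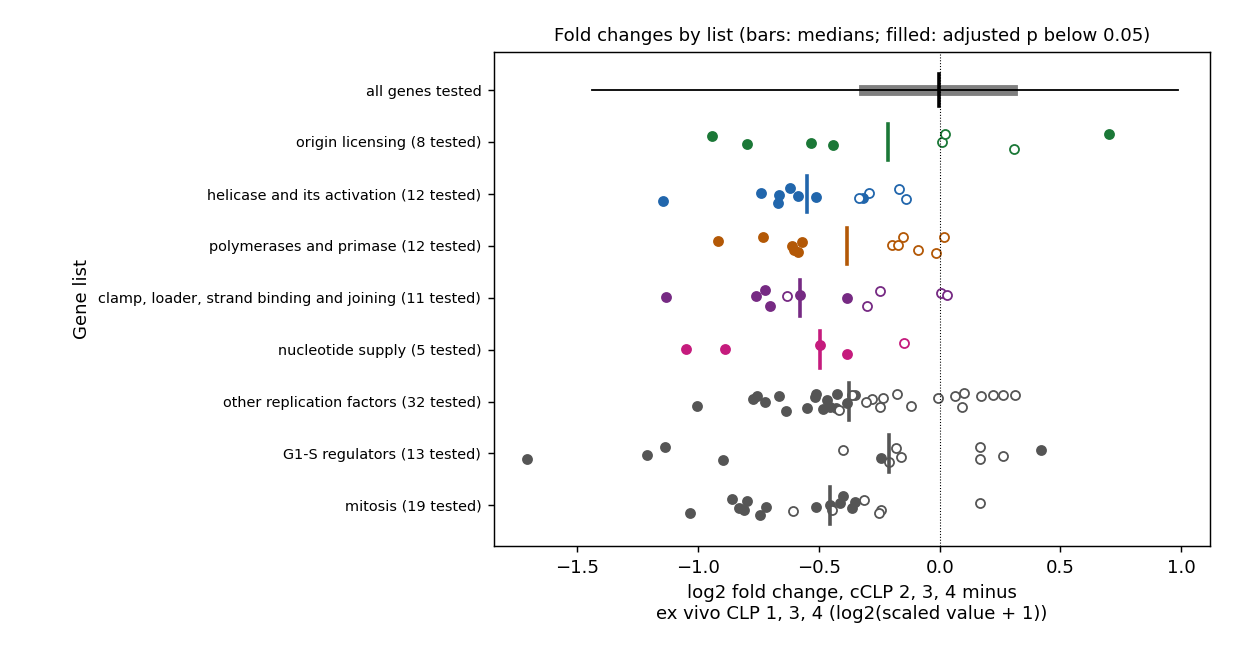
Log2 fold changes over the 6 libraries for the 5 replication subgroups and 3 related lists (points, filled where adjusted p is below 0.05; vertical bars are medians), beside all 6622 genes tested (thin line, 5th to 95th percentile; thick line, quartiles). Medians of the subgroups lie between -0.58 and -0.22.

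Myeloid marker RNA moved with the same contrast. The summed value of 14 myeloid markers was 1419, 3299 and 3020.3 in ex vivo replicates 1, 3 and 4 and 269 to 294 in cCLP replicates 2, 3 and 4. Mpo made up most of the cCLP sum, at 260, 271 and 284. It was at 365, 945 and 972 in ex vivo replicates 1, 3 and 4. In cCLP replicates 2, 3 and 4, 10 of the 14 were listed at 0, Elane, Ctsg, Csf1r and S100a8 among them. The sum was 171 in the library labelled ex vivo CLP 2, whose mean over the replication genes was -0.39, and 1725 in the library labelled cCLP 1, whose mean was -0.04. Within ex vivo replicates 1, 3 and 4, the means were -0.03, 0.06 and -0.03. Ex vivo CLP 1 had the lowest sum of these and ex vivo CLP 3 the highest. Ex vivo CLP 4, with a sum of 3020.3, had the lowest mean (-0.033, beside -0.029 in ex vivo CLP 1). The part of myeloid RNA in the fall of the replication genes was not tested. The 9 B lineage markers used summed to 49.5 to 95.5 and 362 to 444, with Vpreb1 at 0 in cCLP replicates 2, 3 and 4 and Pax5 at 0 in ex vivo replicates 1, 3 and 4. Of the 4 tested, Rag1 (6.31 ± 0.51, adjusted p = 7.26e-05) and Rag2 (3.26 ± 0.52, adjusted p = 0.00219), the recombinase genes, rose and made up most of the higher sum. Cd79b (-3.63 ± 0.26, adjusted p = 2.24e-05) and Blnk (-2.45 ± 0.35, adjusted p = 0.000974), genes of B cell receptor signalling, fell. Cd79a, another such gene, was too low to test. Its mean was 1.07 in ex vivo replicates 1, 3 and 4 and 9.18 in cCLP replicates 2, 3 and 4. In the same order, untested Ebf1 had means of 0.403 and 6.91, and untested Pax5 0 and 1.23. Untested Vpreb1 and Igll1 had lower means in cCLP replicates 2, 3 and 4. The part of these B lineage markers in the fall of the replication genes was not tested. Erythroid markers summed to 8.46 to 45.7 and 4.19 to 7.65, and their part was likewise not tested. Of 10 stromal markers, 6 were at 0 in all 8 libraries, and the sums were 10.2 to 15.7 and 10.5 to 19.1. These sums hold opposite moves. Fn1 was at 0, 0 and 0.718 in ex vivo replicates 1, 3 and 4 and at 11.7, 6.69 and 5.87 in cCLP replicates 2, 3 and 4. Pdgfrb had means of 9.18 and 5.04 in the same libraries. No stromal marker passed the filter on low values, so their changes were not tested.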

How the data were processed

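RNA from sorted cells was sequenced in 8 libraries (TruSeq stranded total RNA with Ribo-Zero, 100 ng, paired reads of 75 nt, per the labels). The submitters' processing notes name TopHat2, Bowtie2, HTSeq 1.0.6 and GRCm38 (mm10), and the role of each, the strand setting and any scaling are not given in the sources used here. The deposited value per gene is a score, a whole number on a scale no label names. Its dispersion index was 0.525 between ex vivo CLP 3 and 4 and 0.260 between cCLP 3 and 4, where read counts would average about 1 or more, so the planned count tests gave way to limma and depth is unknown.

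Symbols came from GENCODE vM21 (37693 of 39179 IDs matched). Each library was divided by a factor, its sum of values times its mean ratio to a reference library. That ratio was averaged on the log scale, on values divided by library sums, after trimming (30% for ratios, 5% for levels). Factors were then divided by their geometric mean. Genes entered the test with scaled values of 10 or more in no fewer libraries than the smaller group holds. Log2(scaled value + 1) was fitted on group with limma 3.58.1 in R 4.3.3 (mean-variance trend, robust moderation), two-sided, with Benjamini-Hochberg adjustment over all genes tested and a threshold of 0.05. The fit was tested on simulated data. Tables used Python 3.11.15. A marker of the B lineage list is not reported here and was left out of its sum. Members and lists were chosen with earlier results of these data known. Genes given in full were, per subgroup, the 2 called genes with the largest fall and the called gene with the largest rise over the 6 libraries, and the 3 with the smallest p over the 8. From the related lists the called gene with the largest change in each direction was named, and the other genes were given by fold change or interval. Cdc6, Orc1, Orc6, Gins3, Pcna, Lig1, Dut and Rrm2 were given with more values after these were seen. E2f1, E2f2, E2f4, E2f7 and E2f8 were likewise added from the related lists after their values were seen.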

Additional observations from a re-analysis of the deposited data

Results flagged for a closer look

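In the labelled groups of 4, a library stood far from the other 3 (a gap to its neighbour above Dixon's 95% critical value, which chance gives in about 1 in 20 groups) in 20 of 98 groups, counting each of 49 replication genes in both groups. Of these 20, 18 lay in 2 libraries, those labelled ex vivo CLP 2 and cCLP 1. The library labelled cCLP 1 was above the other cCLP libraries, with scaled values of 42.7 for Cdt1 (others 27.7 to 29.8), 50.3 for Gmnn (others 30.8 to 32.5), 193 for Mcm3 (others 117 to 124), 223 for Mcm5 (others 136 to 141), 408 for Mcm6 (others 285 to 302), 187 for Mcm7 (others 119 to 125), 45.6 for Cdc45 (others 32.5 to 34.4) and 40.8 for Gins1 (others 17.0 to 20.1). It also stood above them with 10.4 for Gins3 (others 8.38 to 8.60), 36.1 for Pola1 (others 17.2 to 18.1), 53.2 for Pold1 (others 26.6 to 29.6), 22.8 for Rfc3 (others 16.2 to 17.0), 47.5 for Rfc4 (others 25.2 to 28.7), 40.8 for Rfc5 (others 19.1 to 21.0), 65.5 for Rpa1 (others 45.7 to 47.8) and 28.5 for Tk1 (others 14.9 to 16.8). The library labelled ex vivo CLP 2 was at 16.8 for Orc5, above 10.2 to 10.9 in the other ex vivo libraries, and at 110.0 for Mcm3, below 187 to 199. The remaining pair were Orc2 at 33.5 in cCLP 4 (others 29.4 to 29.8) and Pold3 at 43.5 in ex vivo CLP 1 (others 33.7 to 34.4).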

How the results depend on the processing

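Over the 8 libraries 0 replication genes were called under every alternative run. Their median of -0.23 ranged from -0.37 to -0.20 with 1 library left out. Over the 6 libraries the number that fell was 28, with 23 to 29 under other settings and 24 to 30 with 1 library left out, and the number that rose was 1, with 1 to 2 with 1 library left out and 0 when the filter was a scaled value of 20, which left Orc5 untested. The overall median of -0.50 was -0.45 with a pseudocount of 5 and -0.52 to -0.42 with 1 library left out. The helicase median was -0.51 with library sum scaling, -0.48 with a pseudocount of 5, -0.51 with no filter and -0.59 to -0.49 with 1 library left out. For the polymerases it was -0.33 with a pseudocount of 5 and -0.20 with the filter at 20. For the clamp group it was -0.54 with library sum scaling and -0.61 to -0.40 with 1 library left out. For origin licensing it was -0.44 with no filter and -0.44 with the filter at 20, where Orc1 entered or low ORC genes left. Medians of the other subgroups with 1 library left out ran -0.29 to -0.11 for origin licensing, -0.38 to -0.35 for the polymerases and -0.57 to -0.42 for nucleotide supply. Where no cause is given, the cause was not tested.

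Deviations of same-numbered libraries from the labelled group means correlated at 0.594, 0.842, -0.574 and -0.857 across genes. Each of these means is shifted by a library whose profile resembled the opposite label (ex vivo CLP 2 or cCLP 1). That shift alone can set these signs, so the correlations cannot decide whether the numbers pair libraries. The main fit used group only. With the replicate block, 23 genes fell and 1 rose over the 6 libraries (median -0.44), the calls for Orc6, Mcm6, Mcm10, Rpa1, Rrm1, Dut and Cdkn1a (adjusted p = 0.485) ended and Lig1 was called. In that fit, ex vivo CLP 1 and cCLP 2 had no same-numbered partner, so its fold changes rested on replicates 3 and 4 of each group. Over the 8 libraries the block called 0. Among all genes, 1370 rose and 1482 fell over the 6 libraries, against 2238 and 2785 with no filter and 882 and 989 with the filter at 20. E2f3 was not called with upper quartile (adjusted p = 0.0723) or library sum scaling (0.104). Depth is unknown, so what it limits cannot be given.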

Other observations

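Of the 50 replication genes, 12 start within 500 bases of a protein-coding gene on the other strand in GENCODE vM21, a feature looked up after the values were seen. Shared starts went with both like and unlike changes over the 6 libraries by limma. Ap4m1, an adaptor complex gene whose start lies inside Mcm7, fell (-0.41 ± 0.10, adjusted p = 0.0147) as Mcm7 did. Vps35, a retromer gene whose start lies inside Orc6, rose (0.38 ± 0.11, adjusted p = 0.0209), while Orc6 fell. Ufd1, whose start lies inside Cdc45, did not pass the test (-0.22 ± 0.10, adjusted p = 0.0984). Neither did Tmem258, whose start lies inside Fen1 (-0.07 ± 0.12, adjusted p = 0.645), Rars2 next to Orc3 (0.33 ± 0.12, adjusted p = 0.0619) or Prpf38a next to Orc1 (-0.29 ± 0.13, adjusted p = 0.0955). Prkdc, whose start lies 466 bases from that of Mcm4, was too low to test, at means of 7.09 and 6.95. Differences between neighbours were not tested.

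Ex vivo CLP 3 had the highest value of ex vivo CLP 1, 3 and 4 for 30 of 48 replication genes (62.5%), beside 43.4% of all genes tested. It had the lowest for 13 (27.1%), close to 28.8% of all genes. Those were Orc5, Mcm2, Mcm3, Mcm4, Mcm10, Pold3, Pole, Pole3, Rfc1, Rfc4, Rpa1, Lig1 and Rrm2.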
